A study of Homo sapiens with 6 samples.

Results

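The genes described here encode the machinery that brings proteins into mitochondria, folds them there and degrades them, measured in K562 cells, an established human cell line derived from the bone marrow of a person with CML, a leukaemia of the myeloid lineage. They were the 43 of 23710 gene symbols in the count files that start with TOMM or TIMM and a digit (10 and 13 genes) or that were named singly (20 genes, among them HSPA9, HSPD1, LONP1 and CLPP). Cells that received 3FM-dC at 20 µM together with THU at 2 mM for 24 h were compared with cells given DMSO, the solvent of both compounds, for 24 h, with 3 libraries per group. All cells were of the K562 line at passages 13 to 16 grown with 10% serum. A directional kit turned 1000 ng of RNA per sample into mRNA libraries. The labels give 3FM-dC and THU by abbreviation only, and no group had either compound alone, so the effects of 3FM-dC and THU cannot be told apart. The title concerns activation of TET2, which oxidises methylated cytosine in DNA, and the design asked how 3FM-dC alters gene expression.

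Most mitochondrial proteins are encoded in the nucleus, made in the cytosol and imported as unfolded chains. The TOM complex of the outer membrane lets them in, small TIM chaperones escort membrane proteins through the intermembrane space, and the TIM23 and TIM22 translocases of the inner membrane take over from there. In the matrix a motor built on the HSP70 protein mortalin pulls the chain in, the processing peptidase cuts off the targeting sequence, HSP60 with HSP10 folds the product, and proteases such as LONP1 and CLPXP remove damaged chains. Cells are known to answer mitochondrial protein stress with a transcriptional programme in which ATF4, ATF5 and DDIT3 take part.

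Depth was between 19052821 and 20737363 counts in genes for treated libraries and between 18408826 and 22750278 for DMSO libraries. Whether the replicates of a group were separate cultures is not stated in the labels, so the p-values speak to variation among these libraries alone, part or all of which may be technical. The erythroid markers of K562 were present in both groups. HBE1, HBG1, HBZ, TFRC, GATA1, TAL1 and LMO2 summed to between 2742 and 2904 CPM in treated libraries and between 5355 and 5456 CPM in DMSO libraries, where CPM is the read count scaled to a common, TMM-adjusted library size. Of these 7, 6 fell and TAL1 rose. Of the 16 markers of other cell types, MS4A1, PDGFRA, CDH5, KRT5 and KRT14 had no count in any library (a count of 0 leaves room for at most 0.163 CPM in a library). The 6 lymphoid markers summed to between 105 and 112 CPM in treated and between 89.0 and 96.1 CPM in DMSO libraries, nearly all of it PTPRC, a gene of most blood cells. The 4 epithelial markers summed to between 60.6 and 63.7 CPM in treated and between 101.7 and 103 CPM in DMSO libraries, nearly all of it EPCAM. The 6 fibroblast and endothelial markers summed to between 6.91 and 11.4 CPM in treated and between 10.3 and 13.8 CPM in DMSO libraries. The part of these markers in the results below was not tested.

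Transcripts of import and folding genes were mostly lower in treated cells, while those of the protease LONP1 and the chaperone HSPA9 were higher. Of the 43 genes, 42 had enough counts to be tested. Among these, 30 fell, 5 rose and 7 did not pass (edgeR quasi-likelihood test, adjusted over the 12339 genes tested, threshold 0.05). In all, 83.3% of the 42 changed in either direction, against 66.4% of the genes tested, of which 32.7% fell and 33.8% rose. Of the 42, 71.4% fell and 11.9% rose. Of the 6930 genes whose mean reached 25 CPM, 74.6% changed, with 46.2% lower and 28.4% higher. The median log2 fold change of the 42 was -0.32, against 0.01 for all genes tested and -0.09 for those that reached 25 CPM. In 30 genes all treated libraries lay below all DMSO libraries and in 5 all lay above, shares that were 34.5% and 35.5% over all genes tested (70.0% together). Lower CPM in such bulk libraries can stand for fewer cells that make a transcript, for less transcript per cell or for more of other transcripts. These cannot be told apart.

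**Figure D1:**
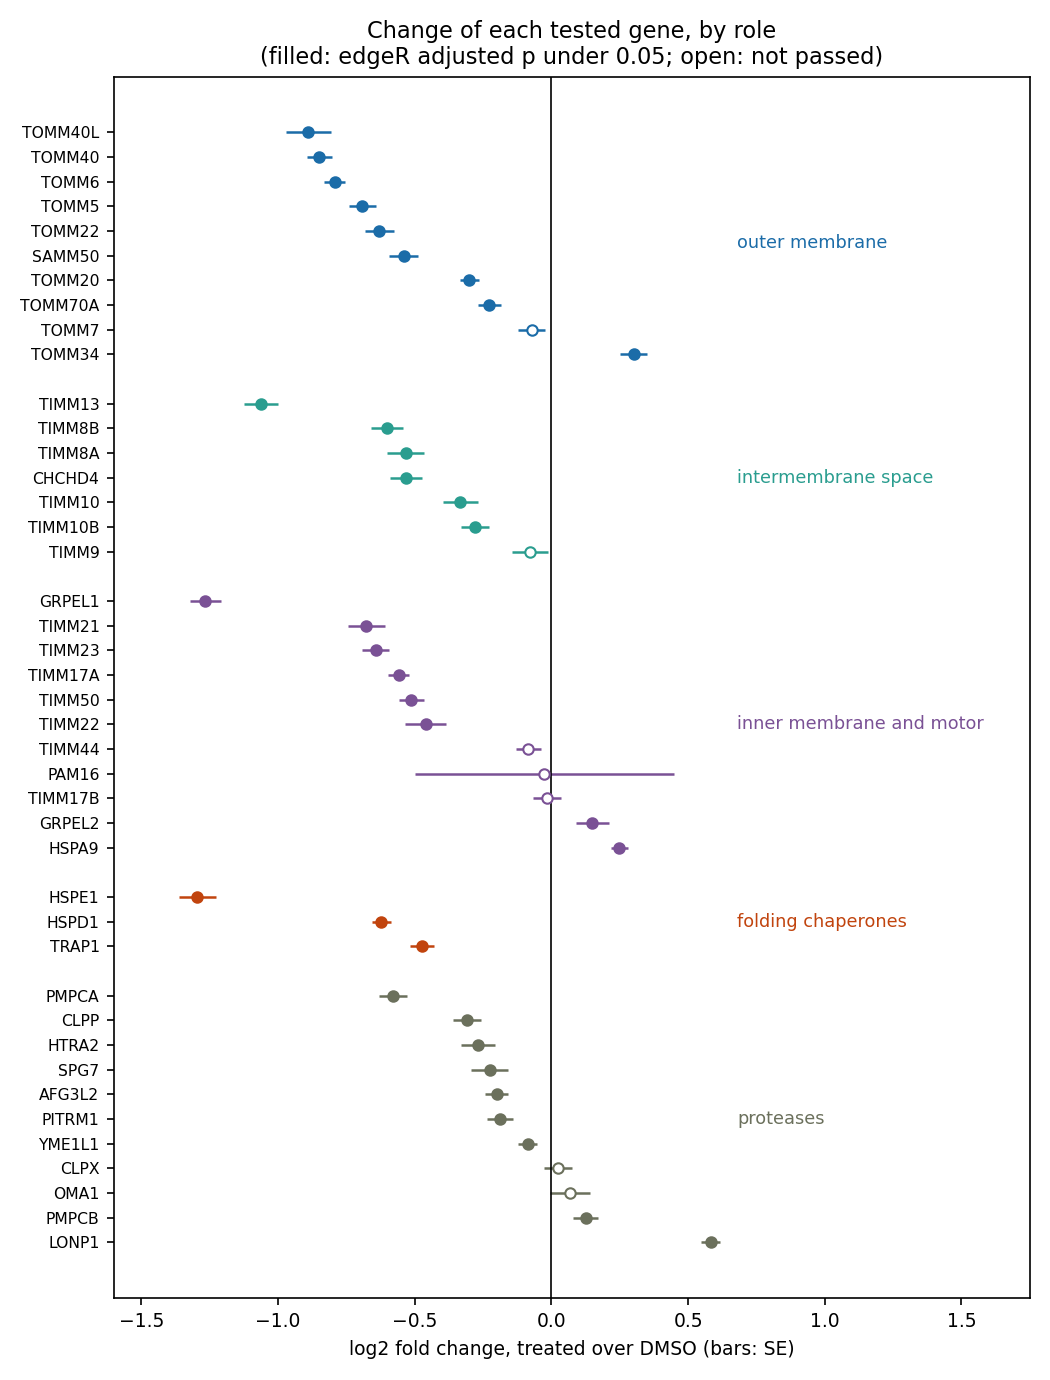
Log2 fold change of each of the 42 tested genes, treated over DMSO, with its SE as a bar, grouped by role from the outer membrane (top) to the proteases (bottom). Filled points passed the edgeR test at an adjusted p under 0.05 and open points did not, and the values run from -1.30 for HSPE1 to 0.58 for LONP1.

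Of the 42 genes, 3 fell by more than 1 on the log2 scale (HSPE1, GRPEL1 and TIMM13), 7.14% against 2.46% of all genes tested. By edgeR 0 of the 42 rose by that much, against 10.2% of all genes tested. The split between rises and falls over all genes depended on library scaling. With total counts in place of TMM factors, 5059 genes rose and 3185 fell, in place of 4167 and 4031. Of the genes described here 6 then rose and 27 fell. The calls lost with total counts were those of PITRM1, SPG7 and YME1L1, and CLPX then passed as higher.

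The role groups differed in how much of their summed expression changed. The 11 outer membrane genes together had 1606, 1486 and 1566 CPM in treated libraries, against 2175, 2106 and 2167 CPM in DMSO libraries. The 3 folding chaperones had 1231, 1087 and 1204 CPM in treated libraries, against 1768, 1781 and 1804 CPM in DMSO libraries. The 7 genes of the intermembrane space summed to 342 ± 10.9 CPM in treated and 490.2 ± 8.80 CPM in DMSO libraries (SD, n = 3 each). These groups did not overlap. The 11 genes of the inner membrane and its motor summed to 1926 ± 59.7 CPM in treated and 2005 ± 6.93 CPM in DMSO libraries, again with no overlap, a sum in which HSPA9 is the largest term and rose. The 11 protease genes summed to 1629 ± 23.0 CPM in treated and 1609 ± 13.8 CPM in DMSO libraries, and here the libraries of the groups overlapped. Within that sum LONP1 had a mean of 469 CPM in treated and 313 CPM in DMSO libraries, while 7 of the 11 genes fell. The sums of all roles rest on TMM factors between 1.025 and 1.041 for treated and of 0.969 for DMSO libraries. That gap is wider than the change of the inner membrane or the protease sum, with treated to DMSO ratios of 0.961 and 1.012. The order of the groups in both sums thus depends on library scaling, and sums with total counts are not reported here. The 43 genes together held between 0.663% and 0.699% of the gene counts in treated libraries and between 0.773% and 0.784% in DMSO libraries.

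**Figure D2:**
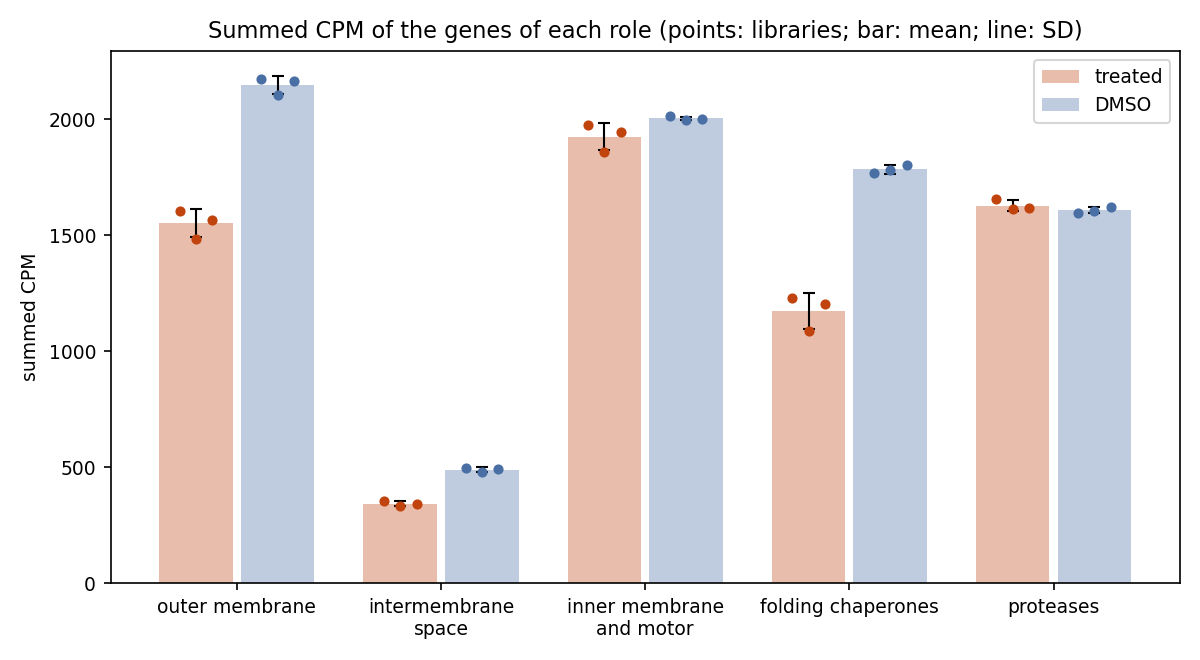
Summed CPM of the genes of each role, with a point per library, a bar at the mean and a line for the SD (n = 3 per group; treated left of DMSO). With TMM factors, the outer membrane, intermembrane space, inner membrane and folding chaperone sums were lower in all treated libraries than in any DMSO library. The protease sums lay between 1598 and 1655 CPM in all 6 libraries.

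Among the treated libraries, replicate 2 stood lowest in 22 of the 30 genes that fell and replicate 1 highest in 21 of them. The folding chaperone sum of treated replicate 2, at 1087 CPM, was also the lowest. Without treated replicate 2 the median log2 fold change of the tested genes was still -0.32.

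Of the 10 tested genes grouped with the outer membrane, 8 fell, TOMM7 did not pass and TOMM34, whose product is cytosolic, rose. TOMM40, which forms the channel of the TOM complex, had 199.6, 167 and 185 CPM in treated libraries and 337, 324 and 332 CPM in DMSO libraries. It fell by 0.85 on the log2 scale (SE 0.05, edgeR adjusted p = 1.43e-15). All treated values lay well below the lowest DMSO value. Its paralog TOMM40L had 27.4, 20.6 and 26.02 CPM in treated libraries and 46.3, 43.2 and 47.4 CPM in DMSO libraries, a fall of similar size (log2 fold change -0.89, SE 0.08). The small subunits TOMM6 and TOMM5, which help to hold the channel together, fell too. TOMM6 had 228, 209 and 219.8 CPM in treated libraries, against 387, 365 and 385 CPM in DMSO libraries. TOMM5 had 132, 113 and 131 CPM in treated libraries, against 209, 196 and 202 CPM in DMSO libraries. TOMM7, the third small subunit, had 123 ± 4.50 CPM in treated and 129 ± 8.79 CPM in DMSO libraries (SD, n = 3 each), and its groups overlapped (log2 fold change -0.07, SE 0.05, edgeR adjusted p = 0.199).

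TOMM20 and TOMM70A, receptors that recognise incoming proteins, had fold changes closer to 0 than the channel; the difference between genes was not tested. TOMM20, the receptor for cleavable targeting sequences, had 514, 471 and 501 CPM in treated libraries and 614, 607 and 608 CPM in DMSO libraries (log2 fold change -0.30, SE 0.03). TOMM70A, the receptor for carrier proteins, had 168, 162 and 171 CPM in treated libraries and 202, 197 and 189 CPM in DMSO libraries (-0.23, SE 0.04). In both genes the groups did not overlap. TOMM22, the central receptor, fell by 0.63 and SAMM50, which inserts barrel proteins into the outer membrane, by 0.54. TOMM34, a cytosolic co-chaperone despite its name, went the other way, with 93.9, 94.5 and 99.3 CPM in treated libraries and 78.6, 74.4 and 80.4 CPM in DMSO libraries. It rose by 0.30 (SE 0.05, edgeR adjusted p = 6.48e-06). TOMM20L had between 6 and 11 counts per library and did not pass the count filter.

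In the intermembrane space 6 of 7 genes fell and TIMM9 did not pass. TIMM13, which works with TIMM8A as a chaperone for inner membrane proteins, had 63.8, 49.5 and 54.5 CPM in treated libraries and 120.0, 113 and 117 CPM in DMSO libraries. It fell 2.09-fold (log2 fold change -1.06, SE 0.06, edgeR adjusted p = 1.02e-14). Its partners TIMM8A and TIMM8B fell by 0.53 and 0.60. CHCHD4, the oxidoreductase that traps small TIM proteins by forming their disulphide bonds, had 52.5, 49.9 and 51.9 CPM in treated libraries and 71.5, 79.5 and 72.2 CPM in DMSO libraries (log2 fold change -0.53, SE 0.06). The chaperone pair TIMM9 and TIMM10 was uneven. TIMM10 fell by 0.33 and its relative TIMM10B by 0.28, while TIMM9 had 44.4 ± 1.11 CPM in treated and 46.8 ± 3.54 CPM in DMSO libraries (SD, n = 3 each; log2 fold change -0.08, SE 0.07, edgeR adjusted p = 0.299).

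At the inner membrane 6 of 11 genes fell, 2 rose and 3 did not pass. TIMM23, the channel of the presequence translocase, had 75.7, 68.6 and 72.3 CPM in treated libraries and 117, 110.1 and 111 CPM in DMSO libraries (log2 fold change -0.64, SE 0.05). TIMM21, an accessory subunit of that complex, had 41.4, 34.7 and 37.0 CPM in treated libraries, against 61.8, 57.3 and 61.4 CPM in DMSO libraries. Both were lower in every treated library. TIMM50, the receptor of the complex, fell by 0.51 and TIMM22, the channel for carrier proteins, by 0.46.

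Of the alternative channel subunits TIMM17A and TIMM17B, the first fell and the other did not pass. TIMM17A had 182, 171 and 170.4 CPM in treated libraries and 260.1, 256 and 255 CPM in DMSO libraries (log2 fold change -0.56, SE 0.04). TIMM17B had 81.8, 85.2 and 81.1 CPM in treated libraries and 79.8, 86.5 and 84.6 CPM in DMSO libraries, with overlapping groups (-0.02, SE 0.05, edgeR adjusted p = 0.785). The log2 ratio of TIMM17A to TIMM17B counts within a library, which does not depend on library scaling, was 1.08 ± 0.07 in treated and 1.62 ± 0.07 in DMSO libraries (SD, n = 3 each).

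Genes of the import motor split. HSPA9, the mortalin HSP70 at its centre, was among the most abundant transcripts of the set, with 1202, 1146 and 1202 CPM in treated libraries and 998, 995 and 996 CPM in DMSO libraries. It rose by 0.25 (SE 0.03, edgeR adjusted p = 3.93e-08). GRPEL1, the nucleotide exchange factor that recharges mortalin, had 38.5, 36.5 and 40.0 CPM in treated libraries and 95.5, 88.0 and 93.1 CPM in DMSO libraries. It fell 2.41-fold (log2 fold change -1.27, SE 0.06, edgeR adjusted p = 2.36e-17). Its paralog GRPEL2 had 62.5, 57.0 and 62.4 CPM in treated libraries and 56.3, 56.6 and 51.3 CPM in DMSO libraries. It rose slightly (0.15, SE 0.06, edgeR adjusted p = 0.0295), which did not hold with DESeq2 (adjusted p = 0.0557), with no count filter (0.0555), against a minimum fold change of 1.2 (adjusted p of 1) and without treated replicate 1, treated replicate 3 or DMSO replicate 3 (0.0926, 0.118 and 0.180). The order of the paralogs within a library differed between groups, with more GRPEL2 than GRPEL1 counts in every treated library and fewer in every DMSO library. TIMM44, which anchors mortalin to the channel, had 128, 116 and 125 CPM in treated libraries, against 133, 127 and 131 CPM in DMSO libraries, and did not pass (-0.09, SE 0.05, edgeR adjusted p = 0.104). PAM16, another motor subunit, had only between 8 and 17 counts per library, and its SE of 0.47 leaves its direction unknown.

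The 3 genes grouped here as matrix folding chaperones all fell, while the chaperone HSPA9, grouped with the motor, rose. HSPE1, the co-chaperonin HSP10, had 31.7, 25.6 and 29.6 CPM in treated libraries and 70.3, 69.2 and 73.5 CPM in DMSO libraries. It fell 2.45-fold, the largest change of the set (log2 fold change -1.30, SE 0.07, edgeR adjusted p = 8.47e-16). HSPD1, the HSP60 chaperonin that HSPE1 caps, had 844, 761 and 845 CPM in treated libraries and 1248, 1256 and 1269 CPM in DMSO libraries (-0.62, SE 0.04). All treated libraries were below all DMSO libraries for both genes. TRAP1, the mitochondrial HSP90, had 329 ± 27.2 CPM in treated and 456 ± 5.93 CPM in DMSO libraries (SD, n = 3 each; -0.47, SE 0.04). HSPE1 shares exonic bases with the readthrough gene HSPE1-MOB4, which was listed at 0 in all 6 libraries, and HSPE1 and HSPD1 both have processed pseudogenes. It is not known how reads shared with these were counted, so the level of HSPE1 is uncertain. PAM16 shares exonic bases with CORO7-PAM16 in the same way.

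HSPD1 and HSPE1 lie head to head on chromosome 2, and their promoter windows (250 bases before to 50 after each start, from RefSeq, build GRCh38.p14) share 204 bases. Windows were at hand for 38 of the 43 genes. The E-box CACGTG, a motif that reads the same on both strands and is bound by MYC and its relatives among others, occurred in 7 of these 38 windows (18.4%) and in 7.43% of the windows of all 27305 genes. The shared window of HSPD1 and HSPE1 holds a single E-box, at chr2:197500357-197500362, and this site is counted once for each gene among the 7 windows. The windows of HSPE1, which fell, and of LONP1 and HSPA9, which rose, are shown to place the motif, with every E-box in capitals, each 5′ to 3′ on the strand of its gene. They span chr2:197500129-197500428 on the plus strand, chr19:5720097-5720396 on the minus strand and chr5:138575352-138575651 on the minus strand.
HSPE1: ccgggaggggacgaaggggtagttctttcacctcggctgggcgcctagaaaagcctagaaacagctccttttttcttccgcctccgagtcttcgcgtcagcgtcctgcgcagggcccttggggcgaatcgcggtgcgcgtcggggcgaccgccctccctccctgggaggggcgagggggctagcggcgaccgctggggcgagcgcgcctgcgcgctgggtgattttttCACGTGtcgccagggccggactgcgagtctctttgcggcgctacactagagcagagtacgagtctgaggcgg
LONP1: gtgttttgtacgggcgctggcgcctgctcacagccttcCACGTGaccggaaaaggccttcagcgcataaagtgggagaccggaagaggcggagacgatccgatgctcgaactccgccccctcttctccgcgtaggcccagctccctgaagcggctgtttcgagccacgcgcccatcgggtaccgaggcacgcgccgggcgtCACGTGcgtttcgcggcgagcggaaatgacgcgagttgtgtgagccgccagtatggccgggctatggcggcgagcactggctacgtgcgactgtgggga
HSPA9: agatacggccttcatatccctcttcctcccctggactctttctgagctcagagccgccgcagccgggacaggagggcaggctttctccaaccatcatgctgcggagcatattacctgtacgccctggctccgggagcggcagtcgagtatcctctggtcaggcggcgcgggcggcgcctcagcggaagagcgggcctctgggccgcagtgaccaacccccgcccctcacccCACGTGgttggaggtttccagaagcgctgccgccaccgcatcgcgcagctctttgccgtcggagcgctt
The E-box of HSPE1 starts 22 bases before the annotated start and that of HSPA9 19 bases before it, and LONP1 has one 212 and one 49 bases before its start. The other 3 genes with an E-box, TIMM10, TIMM8A and TOMM20, fell, so windows with the motif belonged to genes that fell and to genes that rose. TGATGNAA, the core of the element that ATF4 binds with C/EBP proteins, was searched on both strands and found in 2 windows (PMPCB and TIMM22), 5.26% against 3.67% of all windows. The motif of NRF1, a regulator of nuclear genes for mitochondria, was in 1 window (CHCHD4), 2.63% against 1.36%. GAANNTTC, a pair of heat shock element units, was in 0 windows, against 6.87% of all. A match is no evidence of binding.

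Among the processing and degrading proteases 7 of 11 genes fell, 2 rose and 2 did not pass, and most changes were small. Against a minimum fold change of 1.2 the fall of PMPCA passed. Those of AFG3L2, CLPP, HTRA2, PITRM1, SPG7 and YME1L1 did not. LONP1, the matrix protease that removes oxidised and misfolded proteins, had 474, 462 and 469.6 CPM in treated libraries and 305, 317 and 318 CPM in DMSO libraries. It showed the largest rise of the set (log2 fold change 0.58, SE 0.03, edgeR adjusted p = 1.19e-14). All treated libraries were above all DMSO libraries. It was also the 1 gene of the set that passed as higher against a minimum fold change of 1.2.

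Of the subunits of the CLPXP protease, CLPP fell and CLPX did not pass. CLPP, its proteolytic barrel, had 64.1, 67.6 and 67.2 CPM in treated libraries and 84.1, 78.9 and 83.5 CPM in DMSO libraries (log2 fold change -0.31, SE 0.05). CLPX, the ATPase that unfolds its substrates, had 94.0, 87.6 and 91.8 CPM in treated libraries and 84.7, 95.0 and 89.1 CPM in DMSO libraries (0.02, SE 0.05, edgeR adjusted p = 0.696). The CLPP groups stood apart and the CLPX groups overlapped.

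The processing peptidase split as well. PMPCA, its alpha subunit, had 116 ± 10.01 CPM in treated and 173 ± 7.89 CPM in DMSO libraries (SD, n = 3 each) and fell by 0.58 (SE 0.05). PMPCB, the catalytic beta subunit, had 153, 164 and 145 CPM in treated libraries and 142, 139.6 and 142 CPM in DMSO libraries. It rose slightly (0.12, SE 0.05, edgeR adjusted p = 0.0168), a call lost without treated replicate 2 (adjusted p = 0.114), without DMSO replicate 2 (0.0715) and against a minimum fold change of 1.2 (adjusted p of 1). Counts of PMPCA exceeded those of PMPCB in every DMSO library and in no treated library.

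The membrane proteases changed little. YME1L1, which faces the intermembrane space, had 326, 320.4 and 337 CPM in treated libraries and 351, 349.8 and 344 CPM in DMSO libraries. Its fall of 0.09 (SE 0.04, edgeR adjusted p = 0.0322) became 0.00 with total counts (adjusted p = 0.926). The call was also lost with the replicate block (adjusted p = 0.0586), with a filter at 5 CPM (0.243), and without treated replicate 2 (0.0581), DMSO replicate 1 (0.0857) or DMSO replicate 2 (0.0693). Against a minimum fold change of 1.2 it was lost too. AFG3L2 and SPG7, the subunits of the matrix-facing protease, fell by 0.20 and 0.23, PITRM1, which degrades cleaved presequences, by 0.19 and HTRA2, a protease of the intermembrane space, by 0.27. OMA1, a stress-activated protease, had 30.7, 30.6 and 28.9 CPM in treated libraries and 29.7, 27.1 and 29.1 CPM in DMSO libraries, and did not pass (0.07, SE 0.07, edgeR adjusted p = 0.437).

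**Figure D3:**
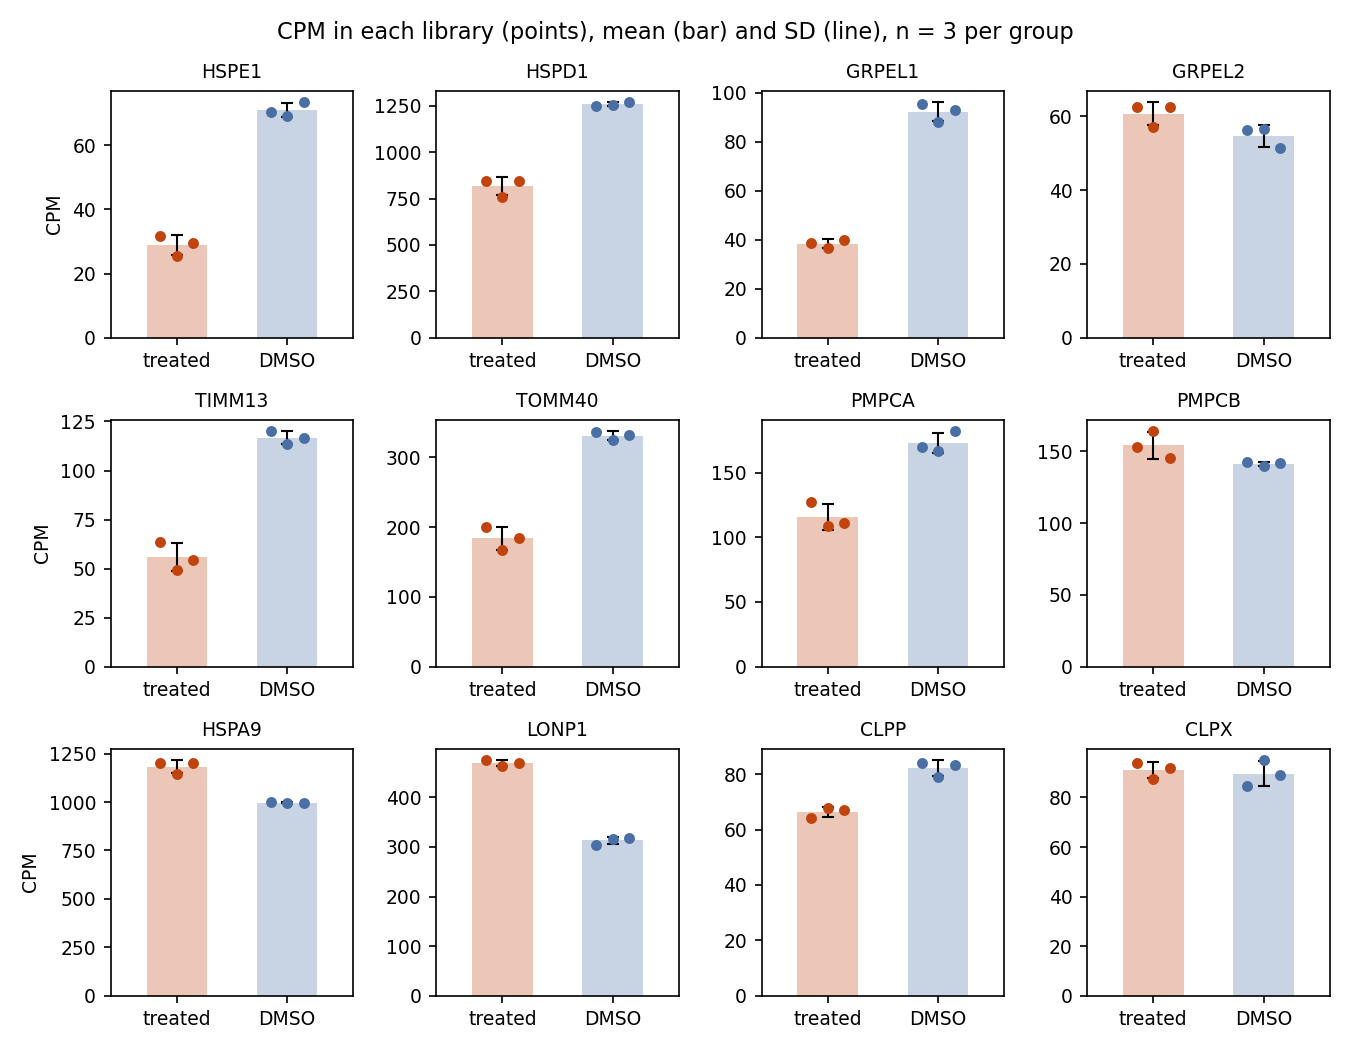
CPM in each library for 12 genes, with a point per library, the mean as a bar from 0 and the SD as a line (n = 3 per group; treated left of DMSO). HSPE1, GRPEL1 and TIMM13 were lower by more than 2-fold, LONP1 was higher by 0.58 on the log2 scale, and the CLPX points overlapped between groups.

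Pairs of paralogs and partner subunits were then compared as ratios of counts within a library, with 0.5 added to each count. In 8 of 10 pairs the treated and DMSO ratios did not overlap, and 70.0% of single genes tested did not overlap either. The share for ratios of other gene pairs was not computed. An exact two-sided permutation test of 3 libraries against 3 cannot go below 0.10, the value all 8 reached (adjusted p = 0.125 over the 10 pairs), so no pair passed. The log2 ratio of GRPEL2 to GRPEL1 was 0.70, 0.64 and 0.64 in treated libraries and -0.76, -0.64 and -0.86 in DMSO libraries. That of PMPCA to PMPCB was -0.26, -0.59 and -0.38 in treated libraries and 0.26, 0.26 and 0.36 in DMSO libraries. That of HSPE1 to HSPD1 was lower in treated libraries by 0.67, and that of TIMM13 to TIMM8A by 0.53. CLPX to CLPP was higher by 0.33, and TIMM10 to TIMM9 and TIMM8B to TIMM8A were lower by 0.25 and 0.07. Unlike these, TOMM40L to TOMM40 and SPG7 to AFG3L2 overlapped between groups, with differences of -0.04 and -0.02 (exact permutation p = 0.60 and 0.80).

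**Figure D4:**
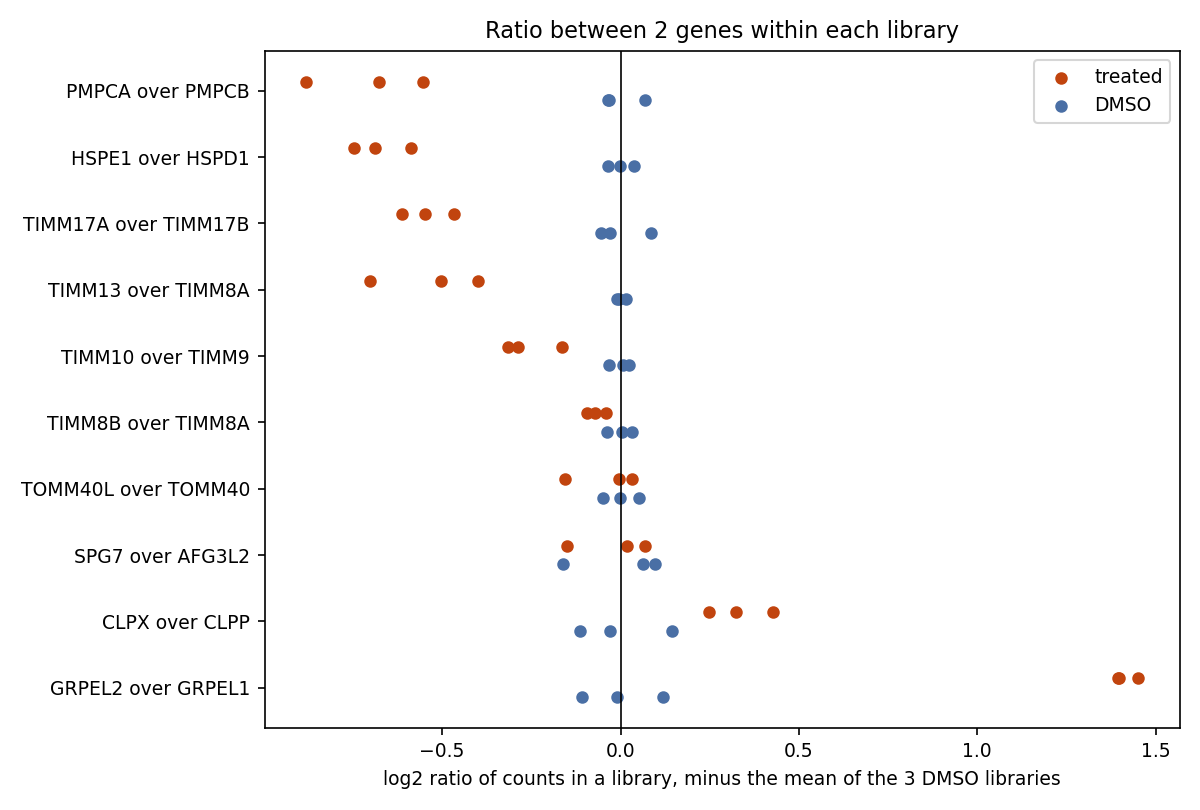
Log2 ratio of the counts of 2 genes within each library, shown minus the mean of the 3 DMSO libraries, for 10 pairs (treated points above DMSO points in each row). The treated points of GRPEL2 over GRPEL1 lay farthest to the right, with a mean difference of 1.41. Those of PMPCA over PMPCB and HSPE1 over HSPD1 lay to the left of all DMSO points of the same pair, at mean differences of -0.70 and -0.67.

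Levels between genes were compared as CPM per kb of the longest coding transcript in GENCODE. TOMM6 was highest in both groups, at 343 CPM per kb in treated and 595 in DMSO libraries, followed by HSPD1 at 333 and 512. HSPA9 ranked 3 in treated and 4 in DMSO libraries, and LONP1 ranked 7 and 10. HSPE1 stood at 30.5 CPM per kb in treated and 74.7 in DMSO libraries, far below its partner HSPD1, with the uncertainty of its counts given above. PAM16 and TOMM20L were under 1 CPM per kb in both groups.

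Other genes of import, processing and inner membrane upkeep fell in 20 of 37 and rose in 5, with a median log2 fold change of -0.21. In all 67.6% of them changed, close to the 66.4% of all genes tested, of which 32.7% fell and 33.8% rose. With total counts 15 fell and 8 rose. ATAD3B and ATAD3A, near-identical ATPases of the inner membrane that can share reads, had 79.9 ± 7.32 and 143 ± 9.07 CPM in treated and 144 ± 2.76 and 216 ± 5.48 CPM in DMSO libraries (SD, n = 3 each). DNAJC11, a J-domain protein of the cristae complex, fell by 0.61. The prohibitins PHB and PHB2, which form a scaffold in the inner membrane, fell by 0.56 and 0.49. Those that rose included AIFM1, a flavoprotein of the intermembrane space that binds CHCHD4 (log2 fold change 0.32), and APOO, a subunit of the cristae complex (0.34). MTX3, of the outer membrane, rose 3.02-fold at a level of 0.795 CPM in treated and 0.255 CPM in DMSO libraries.

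Of 12 general mitochondrial genes 9 fell and 0 rose by edgeR, with a median log2 fold change of -0.28. The share that changed was 75%, against 66.4% of all genes tested and 74.6% of genes that reached 25 CPM. The share that fell was also 75%, against 32.7% of all genes tested and 46.2% of those that reached 25 CPM. The mitochondrial transcription factor TFB2M had 60.4 ± 5.46 CPM in treated and 99.3 ± 2.84 CPM in DMSO libraries, and the elongation factor TUFM 351 ± 15.6 and 520.0 ± 8.66 CPM (SD, n = 3 each). The outer membrane channel VDAC1 fell by 0.55 on the log2 scale (SE 0.04). The 9 listed genes of the mitochondrial genome were not analysed here.

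Genes of mitochondrial stress signalling included log2 fold changes larger than any of the import set. Of 8 listed, 5 rose, 1 fell and 2 did not pass. The share that changed was 75%, against 66.4% of all genes tested and 74.6% of genes that reached 25 CPM. Of the 8 genes 62.5% rose, against 33.8% of all genes tested and 28.4% of those that reached 25 CPM. The list was chosen with earlier results of these data known, so this share is no test. Whether mitochondrial stress had a part in these changes was not tested. ATF5 had 425, 441 and 438 CPM in treated libraries and 55.8, 54.1 and 60.6 CPM in DMSO libraries, a rise of 2.93 on the log2 scale (SE 0.04, edgeR adjusted p = 1.33e-28). DDIT3, also called CHOP, had 91.6, 114 and 96.1 CPM in treated libraries and 21.5, 21.7 and 23.7 CPM in DMSO libraries. ATF4 had 701 ± 13.3 CPM in treated and 302 ± 3.48 CPM in DMSO libraries and CEBPB 110.2 ± 7.34 and 44.4 ± 2.10 CPM (SD, n = 3 each). HSF1, the heat shock regulator, rose by 0.12 (edgeR adjusted p = 0.0171), a call lost without treated replicate 1 (0.0976), DMSO replicate 1 (0.0669) or DMSO replicate 2 (0.0567) and against a minimum fold change of 1.2 (adjusted p of 1). EIF2AK1, the kinase that relays mitochondrial stress to eIF2, fell by 0.18. KIAA0141, now named DELE1, which OMA1 cleaves to activate that kinase, had 50.7 ± 2.68 CPM in treated and 48.8 ± 2.91 CPM in DMSO libraries and did not pass (log2 fold change 0.05, edgeR adjusted p = 0.493).

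Some rows may hold reads of a neighbour. In GENCODE 19 of the 43 genes share exonic bases with a listed gene on the opposite strand, and how strand was set in counting is not given in the sources used here. HSPE1 shares 169 exonic bases with HSPD1, which had 817 CPM in treated and 1258 CPM in DMSO libraries, far more than HSPE1 itself. HTRA2 shares 483 bases with AUP1, which had 178 CPM in treated and 187 CPM in DMSO libraries. AFG3L2 shares 638 bases with TUBB6, which had 172 CPM in treated and 191 CPM in DMSO libraries. YME1L1 shares 443 bases with MASTL, which had 45.7 CPM in treated and 45.2 CPM in DMSO libraries. For TIMM13 the neighbour over 313 shared bases, TMPRSS9, had 2.56 CPM in treated and 1.69 CPM in DMSO libraries. For LONP1 it was RPL36, over 43 shared bases, at 404 CPM in treated and 411 CPM in DMSO libraries. PMPCB shares bases with DNAJC2, which had 109 CPM in treated and 159 CPM in DMSO libraries. TIMM23 has a near-identical copy in the genome, TIMM23B, which was not analysed here, so its value is uncertain.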

How the data were processed

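The deposited files hold raw read counts per gene symbol, 1 file per library, and these counts were used as the authors deposited them. The submitters' processing notes name STAR, Cufflinks, DESeq2 and hg19, with no role for any of them, and which program counted reads, and with what strand setting, is not given in the sources used here. The 5 totals of unassigned reads, between 13.2% and 15.3% of all deposited counts, were left out. The authors' comparison table was not used here. Genes were tested with edgeR 4.0.16 in R 4.3.3 on all 6 libraries (quasi-likelihood, TMM factors, filterByExpr with a minimum count of 10, treatment as the only term, two-sided). P-values were adjusted by Benjamini-Hochberg over the 12339 genes that passed, and the SE of a log2 fold change was derived from the F statistic. Ratios used scipy 1.17.1. Replicate pairs differed beyond counting noise (chi-square per degree of freedom between 2.38 and 6.22 over genes with at least 20 counts). At these depths 3 counts, the limit that a count of 0 allows, are between 0.132 and 0.163 CPM, for counting error only. The test was checked on simulated data with far fewer changed genes than in these data. That check does not reach library scaling, and no result here rests on it. Gene names, lengths and overlaps came from GENCODE (GRCh38), and no hg19 coordinate was used. Of 8 stress and 37 other listed genes, C2orf47 and KIAA0141 stand for MAIP1 and DELE1. The genes and lists were chosen with earlier results of these data known. Every gene of the set could be named. Values per library were set for the 8 largest rises and falls that passed (5 rises in all) and for a fixed list of genes given by name, and PHB, PHB2 and the neighbouring genes were named after their values were seen. Protein features planned at first were not analysed here, and 1 planned K562 marker is not reported here. Alternatives were total counts, RLE factors, DESeq2 1.42.0, limma-voom (limma 3.58.1), no filter, a mean of at least 5 CPM, a minimum fold change of 1.2, a replicate block and leaving out each library.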

Additional observations from a re-analysis of the deposited data

How the results depend on the processing

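With total counts in place of TMM factors the log2 fold changes of 6 genes changed sign, all close to 0: PAM16 became 0.0634, TIMM17B 0.0742, TIMM44 0.0057, TIMM9 0.0133, TOMM7 0.0189 and YME1L1 0.004. The median of all genes tested then moved by 0.09, and 8 other import genes rose in place of 5. PAM16 became 0.0504 with limma-voom and TIMM17B 0.025 with a filter at 5 CPM. Leaving out 1 library at a time moved PAM16 between -0.3247 and 0.3903 (above 0 without treated replicate 2, treated replicate 3 or DMSO replicate 1), CLPX between -0.018 and 0.0623 (below 0 without treated or DMSO replicate 1) and TIMM17B between -0.0533 and 0.0025 (above 0 without DMSO replicate 2). The difference in the ratio of SPG7 to AFG3L2 moved between -0.1014 and 0.0433 (above 0 without treated replicate 1, DMSO replicate 1 or DMSO replicate 3) and that of TOMM40L to TOMM40 between -0.0807 and 0.0142 (above 0 without treated replicate 2). TIMM44 passed without treated replicate 1 (edgeR adjusted p = 0.0401) and TOMM7 without DMSO replicate 2 (0.0382). Over these leave-one-out fits between 29 and 31 genes of the set fell and 4 or 5 rose. Against a minimum fold change of 1.2, 20 genes of the set fell and 1 rose. Under the same test 2641 of all genes rose and 2124 fell, 1 other import gene rose and 10 fell, 0 stress genes and 5 general mitochondrial genes fell. The cause of these shifts was not tested, apart from the stricter threshold of the last setting.

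Same-numbered treated and DMSO libraries did not deviate together (correlations of -0.0086, 0.0012 and -0.0553). With the number as a replicate block 29 genes of the set fell, 5 rose, and YME1L1 lost its call (edgeR adjusted p = 0.0586). A planned sum of TIMM23 and TIMM23B was not run. The background of genes reaching 25 CPM was chosen after seeing the data. Depth limits PAM16 and TOMM20L, with at most 17 counts per library.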
